A study of Homo sapiens with 42 samples.

Results

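In the human leukaemia line MV4;11, 14 protein-coding genes were higher by 1 or more on the log2 scale after 24 h with the ENL degrader MS41 than with DMSO, and within 0.15 of DMSO after 6 h. They were HLA-DRB1, PADI2, CD74, MCUB, F13A1, GSN, TMEM176B, PSAP, SEL1L3, PLD3, LY86, NRG4, SERPINF1 and PRLR. They were chosen from 58721 gene identifiers by 4 conditions on counts per 1000000 counts of a library (CPM). The conditions were a mean of 5 CPM or more with MS41 for 24 h, a mean log2(CPM + 1) with MS41 that differed from DMSO by less than 0.15 in size at 6 h, a difference of at least 1 at 24 h, and no overlap between the MS41 and DMSO libraries at 24 h. Of 9463 protein-coding genes at that level, 299 met the 24 h conditions (3.16%). Among these, 285 were already higher by 0.15 or more at 6 h and 0 were lower by as much, so the 14 late genes made up 4.68% of the genes raised at 24 h. The 6 h and 24 h differences between MS41 and DMSO chose the genes and are given as descriptions, without a test. The 1 added to CPM shrinks differences at low levels, so the 6 h bound is looser for genes at low CPM. At 6 h PRLR averaged 1.31 CPM with MS41 and 1.13 CPM with DMSO, and PADI2 averaged 3.46 and 3.04 CPM.

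ENL, encoded by MLLT1, reads acetylated and crotonylated histones through its YEATS domain and brings elongation factors to active genes; acute leukaemias with MLL fusions depend on it. MS41 is a small molecule that leads to degradation of ENL, and PFI-6 is an inhibitor that occupies the YEATS domains of ENL and AF9. Myeloid leukaemia cells are arrested short of the monocyte or macrophage, cells that present peptides on MHC class II molecules, digest material in lysosomes and release enzymes and secreted factors.

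The values come from 42 RNA libraries in 15 groups. MV4;11, a myelomonocytic line with an MLL-AF4 fusion, was kept with 100 nM MS41, MS41N or PFI-6 or with DMSO for 6 h or 24 h, in 3 libraries per compound and time; the labels do not state the role of MS41N. MV4;11 cells labelled as ENL knockout, made with either of 2 guides, and cells with a control guide labelled as wild type gave 2 libraries per guide. SEMK2, a B-cell precursor line with the same fusion, was given 100 nM MS41 or DMSO, in 3 libraries each, for 6 h or 24 h without a statement of which. MV4;11 cells given MS41 or vehicle in vivo also gave 3 libraries each, with no dose, time or host strain in the labels and with a low-input library kit that the other libraries did not use. The labels do not say whether replicates were separate cultures or animals, so p-values measure the spread between these libraries, which may be technical, and in bulk RNA a change in the share of some cells cannot be told apart from a change in RNA per cell.

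Total counts per library, in units of 1000000, ran from 77.22 to 230.6, so even the lowest gene of the set, TMEM176B, rested on whole-number counts at a mean of 6.24 CPM with MS41 at 24 h. MLLT1 was lower with the ENL guides, at 185 and 189 CPM with guide 1 and 124 and 129 CPM with guide 2, against 227 and 239 CPM with the control guide (log2 fold change -0.63, SE 0.06, edgeR adjusted p = 6.4e-05). Its RNA remained at a level that does not itself show loss of the protein, and the labels do not give the cut site. B-cell precursor markers summed to 1590 to 1679 CPM in SEMK2 and to at most 6.21 CPM in the MV4;11 libraries, while the 7 monocytic markers summed to 27.5 to 44.2 CPM in SEMK2 and to 639 CPM or more in every MV4;11 group.

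The set held 2 members of the MHC class II pathway. They are shown with their promoters because HLA-DRB1 had the largest 24 h difference and CD74 the highest level. HLA-DRB1 encodes a beta chain of the HLA-DR molecule, and CD74 encodes the invariant chain that occupies the class II groove until the molecule reaches the endosome. The promoters of F13A1 and LY86 are shown because these genes lie beside each other on chromosome 6. Each sequence is the first 300-base window listed for the gene in RefSeq (GRCh38.p14), from 250 bases before to 50 after a transcription start, on the gene's own strand. Capitals mark letters that match any of the 12 motifs searched on either strand.
CD74, chr5:150412861-150413160, minus strand: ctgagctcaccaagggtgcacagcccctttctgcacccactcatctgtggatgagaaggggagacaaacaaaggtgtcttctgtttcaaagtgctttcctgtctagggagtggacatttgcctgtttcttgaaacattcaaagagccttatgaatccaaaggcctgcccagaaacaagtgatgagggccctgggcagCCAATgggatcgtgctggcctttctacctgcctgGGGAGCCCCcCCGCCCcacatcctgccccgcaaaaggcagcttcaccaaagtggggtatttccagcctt
HLA-DRB1, chr6:32589799-32590098, minus strand: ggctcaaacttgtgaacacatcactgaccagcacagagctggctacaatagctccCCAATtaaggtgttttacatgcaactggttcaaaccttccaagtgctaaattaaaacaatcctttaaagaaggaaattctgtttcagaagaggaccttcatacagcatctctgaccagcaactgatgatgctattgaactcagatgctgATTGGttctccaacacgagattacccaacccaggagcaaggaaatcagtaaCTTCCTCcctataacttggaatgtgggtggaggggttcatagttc
F13A1, chr6:6320613-6320912, minus strand: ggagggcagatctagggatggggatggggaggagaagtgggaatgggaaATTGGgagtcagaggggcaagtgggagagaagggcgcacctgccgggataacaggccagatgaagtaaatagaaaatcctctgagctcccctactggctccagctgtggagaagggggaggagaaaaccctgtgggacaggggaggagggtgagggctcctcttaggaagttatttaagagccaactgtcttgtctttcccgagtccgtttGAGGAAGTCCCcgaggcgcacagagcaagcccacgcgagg
LY86, chr6:6588470-6588769, plus strand: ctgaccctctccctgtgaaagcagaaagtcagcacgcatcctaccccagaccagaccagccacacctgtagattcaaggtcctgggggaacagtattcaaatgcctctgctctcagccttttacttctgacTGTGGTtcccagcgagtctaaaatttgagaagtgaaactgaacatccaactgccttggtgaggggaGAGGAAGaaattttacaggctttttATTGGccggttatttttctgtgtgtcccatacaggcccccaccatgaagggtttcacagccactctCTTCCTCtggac

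All 4 windows held the CCAAT box (CCAAT), which was present in 42.9% of the 21 windows listed for 12 of the 14 genes and in 34.6% of all 35116 windows. The PU.1 site (GAGGAAG) was found in the windows of HLA-DRB1, F13A1 and LY86, and in 5 of the 21 windows (23.8%) against 13.6% of all windows. An NF-kB site (GGGANNNCC) was found for CD74 and F13A1, and in 12 of the 21 windows (57.1%) against 22.9% of all windows; in F13A1 it overlaps the PU.1 letters. LY86 also held a RUNX site (TGTGGT; 23.8% of the 21 windows against 13.1% of all), and CD74 a GC box (GGGCGG; 47.6% against 45.0%). The TATA box (TATAAA) was in 19.0% against 11.5%, and an AP-1 site (TGANTCA) and an E-box (CACGTG) in 4.76% each against 7.71% and 7.26%. The 21 windows held none of the letters of the interferon-stimulated response element (GAAA, any 2 bases, GAAA; 3.57% of all windows), the STAT site (TTCNNNGAA, 7.66%), the CEBP site (TTGCNNAA, 10.5%) or the cAMP response element (TGACGT, 7.98%). Windows of 1 gene overlap, and a match of letters is a description and not a binding site.

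HLA-DRB1 was at 37.3, 41.8 and 38.6 CPM in the 3 libraries with MS41 for 24 h, against 9.07, 9.78 and 9.31 CPM with DMSO. After 6 h it was at 8.36, 7.99 and 8.02 CPM with MS41 and 6.90, 8.06 and 7.37 CPM with DMSO, so the groups overlapped at 6 h and stood 4.18-fold apart in their means at 24 h. Reads of HLA-DRB1 (chromosome 6, 32578769 to 32589848, minus strand) can be shared with its near-identical paralogs, which makes its own level uncertain. CD74 (chromosome 5, 150401637 to 150412929, minus strand) was at 392, 407 and 397 CPM with MS41 for 24 h, against 128, 129.8 and 135 CPM with DMSO. At 6 h CD74 was at 143, 128 and 133 CPM with MS41 and at 130.2, 122 and 126 CPM with DMSO, again with overlap. CD74 had the highest level of the 14 per exon length, 238 CPM per kilobase with MS41 at 24 h, against 78.2 with DMSO. HLA-DRA, the alpha chain that pairs with HLA-DRB1, averaged 161 CPM with MS41 and 22.9 CPM with DMSO at 24 h; it was outside the set because its 6 h difference was already 0.24.

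PSAP and PLD3 act in the lysosome: prosaposin is cut into saposins that assist lipid hydrolases, and PLD3 is an exonuclease. PSAP (chromosome 10, 71816298 to 71851375, minus strand) was at 188, 192 and 181 CPM with MS41 for 24 h, against 82.4, 85 and 86.1 CPM with DMSO. At 6 h it was at 75.6, 69.3 and 71.0 CPM with MS41 and 69.5, 67.8 and 67.9 CPM with DMSO, which overlap. PLD3 (chromosome 19, 40348456 to 40380439, plus strand) averaged 66.2 ± 3.44 CPM with MS41 at 24 h and 30.9 ± 1.71 CPM with DMSO (SD, n = 3 each). PLD3 shares positions with C19orf47 and HIPK4, and the strand setting of the counting is not stated.

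LY86 and TMEM176B encode membrane-associated proteins of antigen-presenting cells, and LY86 (also called MD-1) pairs with the receptor CD180. LY86 (chromosome 6, 6588108 to 6654983, plus strand) was at 39.0, 38.1 and 37.8 CPM with MS41 for 24 h, against 17.8, 17.4 and 18.0 CPM with DMSO. Its 6 h values were 33.0, 34.1 and 33.8 CPM with MS41 and 30.9, 30.8 and 31.6 CPM with DMSO. The DMSO libraries thus stood lower at 24 h than at 6 h, and the mean of the MS41 libraries at 24 h was 1.14-fold that of the MS41 libraries at 6 h. CD180 averaged 179.9 CPM with MS41 and 169 CPM with DMSO at 24 h. TMEM176B (chromosome 7, 150791285 to 150801360, minus strand) was the only one of the 14 with a 6 h difference below 0 (-0.05). It was at 5.98, 7.44 and 5.29 CPM with MS41 for 24 h, against 2.56, 1.95 and 2.27 CPM with DMSO. TMEM176B overlaps TMEM176A, which was also higher at 24 h, at a mean of 1.19 CPM with MS41 and 0.414 CPM with DMSO.

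Among the enzymes and the cytoskeletal protein of the set, PADI2, an arginine deiminase that makes citrulline in proteins, showed the largest ratio of means, 4.46-fold. PADI2 (chromosome 1, 17066761 to 17119435, minus strand) was at 11.9, 12.5 and 10.8 CPM with MS41 for 24 h, against 2.45, 2.61 and 2.83 CPM with DMSO. At 6 h it was at 3.82, 3.18 and 3.37 CPM with MS41 and 2.93, 3.09 and 3.10 CPM with DMSO, a small gap without overlap. F13A1 (chromosome 6, 6144085 to 6321013, minus strand) encodes the catalytic subunit of coagulation factor XIII, which monocytes and platelets carry. It was at 75.3, 72.9 and 68.7 CPM with MS41 for 24 h, against 29.1, 29.8 and 29.2 CPM with DMSO. F13A1 and LY86 lie 267 kb apart with 3 annotated genes between them, 0 of them protein-coding. GSN (chromosome 9, 121207794 to 121332843, plus strand), the actin-severing protein gelsolin, was at 150.4, 153 and 146 CPM with MS41 for 24 h, against 65.1, 64.8 and 64.9 CPM with DMSO. Its 6 h level was 109 CPM on average with MS41 and 101 CPM with DMSO, so GSN, like LY86, stood lower in DMSO at 24 h than at 6 h. MCUB (chromosome 4, 109560205 to 109688726, plus strand), a subunit that lowers the activity of the mitochondrial calcium uniporter, averaged 14.3 ± 0.779 CPM with MS41 at 24 h and 4.28 ± 0.434 CPM with DMSO (SD, n = 3 each). At 6 h MCUB averaged 6.57 CPM with MS41 and 5.92 CPM with DMSO, so MCUB too stood lower in DMSO at 24 h than at 6 h. The pore subunit MCU averaged 61.0 CPM with MS41 and 72.4 CPM with DMSO at 24 h. GSN overlaps RAB14 and GSN-AS1, and MCUB overlaps CASP6.

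SERPINF1 (1.02), NRG4 (1.05) and PRLR (1.01) had the smallest 24 h differences in mean log2(CPM + 1) of the 14. By ratio of means SERPINF1 was also lowest (2.07-fold), while NRG4 (2.32-fold) and PRLR (2.33-fold) stood above PLD3 (2.14-fold). SERPINF1 (chromosome 17, 1761959 to 1777574, plus strand), the secreted serpin also called PEDF, averaged 57.1 ± 0.859 CPM with MS41 at 24 h and 27.6 ± 0.484 CPM with DMSO (SD, n = 3 each). NRG4 (chromosome 15, 75935969 to 76059795, minus strand), a ligand of the receptor ErbB4, averaged 9.72 ± 0.403 CPM with MS41 and 4.2 ± 0.408 CPM with DMSO. ERBB4 itself averaged 0 CPM with MS41 and 0.0027 CPM with DMSO at 24 h, while in the separately processed in vivo libraries it averaged 43.9 CPM with MS41 and 54.2 CPM with vehicle. PRLR (chromosome 5, 35048756 to 35230589, minus strand), the prolactin receptor that signals through JAK2 and STAT5, was at 6.97, 7.42 and 8.35 CPM with MS41 for 24 h, against 3.59, 3.15 and 3.0 CPM with DMSO. PRLR was also the lowest of the 14 per exon length, at 0.615 CPM per kilobase with MS41. SEL1L3 (chromosome 4, 25747427 to 25863760, minus strand) was at 119.9, 119.7 and 123 CPM with MS41 for 24 h, against 56.4, 54.8 and 54.1 CPM with DMSO. Its 24 h difference was 1.12. SEL1L3 overlaps SMIM20 and NRG4 overlaps FBXO22, and the strand setting of the counting is not stated.

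**Figure D1:**
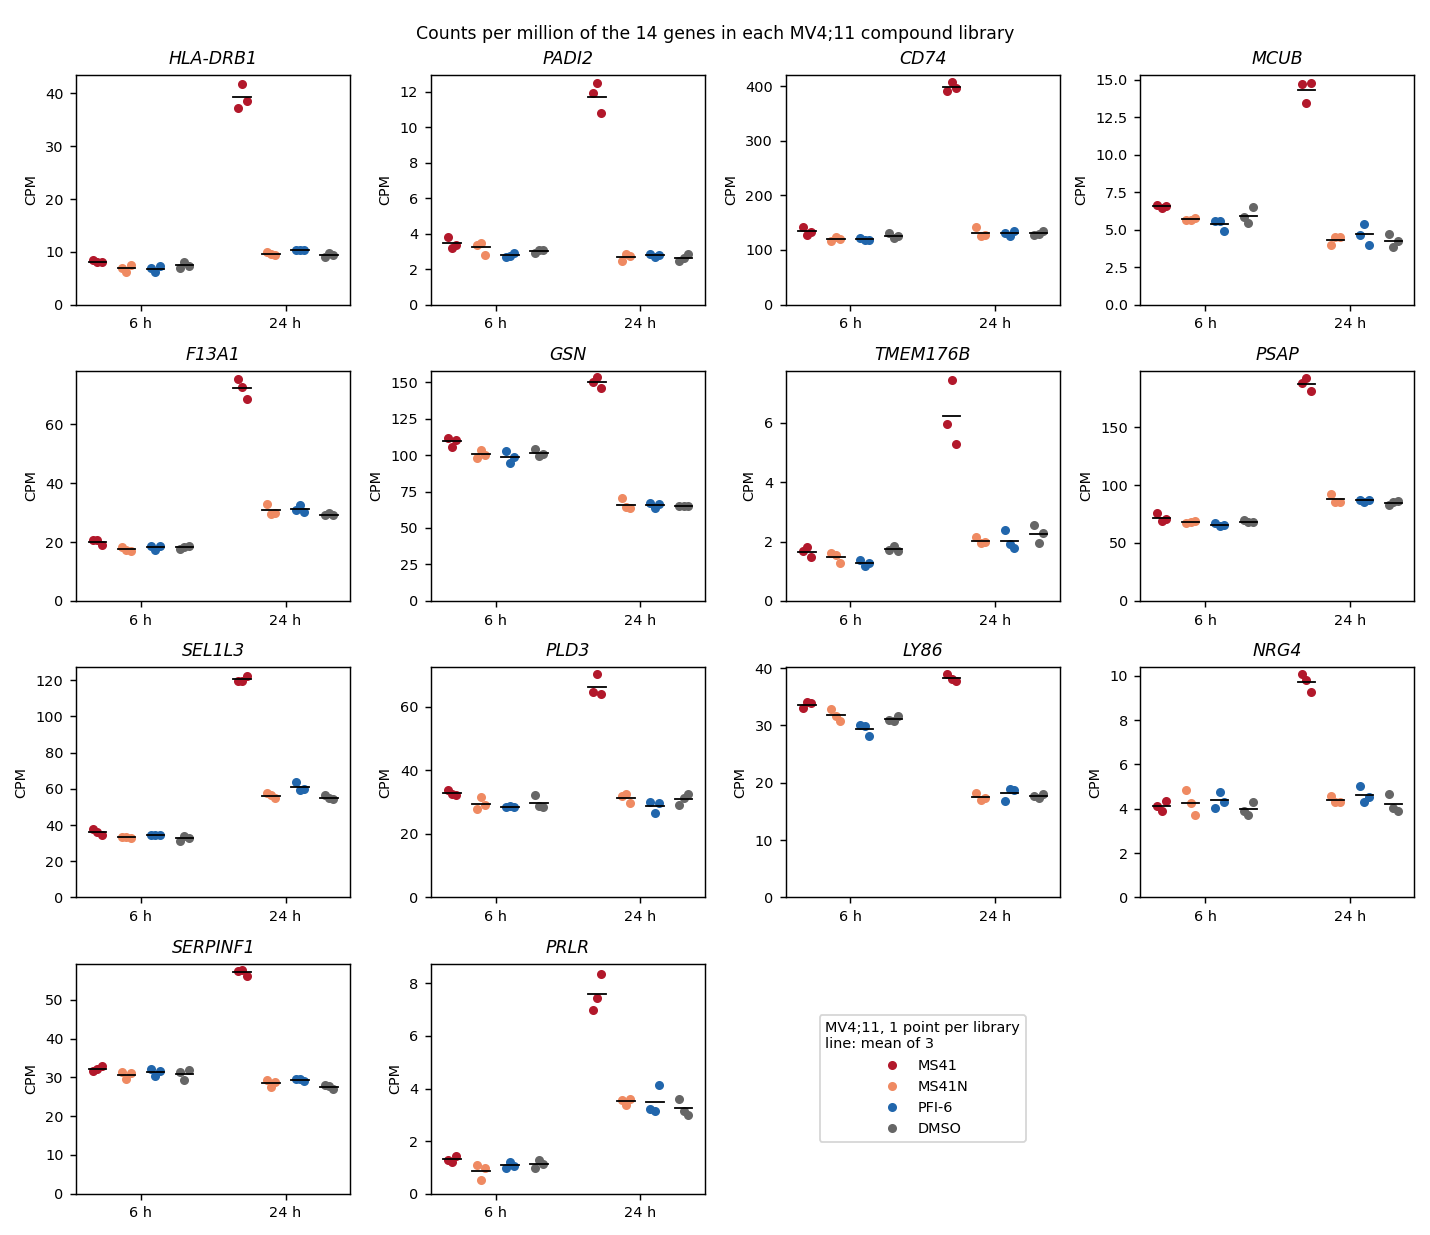
CPM of the 14 genes (y axes) in each of the 24 MV4;11 compound libraries, by hours of treatment (x axis); each point is 1 library and each line a mean of 3. The MS41 points at 24 h stand above all other points in every panel, and for LY86 and GSN the DMSO, MS41N and PFI-6 points at 24 h lie below those at 6 h.

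For all 14 genes every MS41 library at 24 h lay above all 21 other compound libraries of MV4;11, which held for 22.1% of the 9463 expressed genes; the choice of genes set most of this. The lowest MS41 library at 24 h exceeded the highest of the others by 1.11-fold for LY86 and by up to 3.61-fold. At 6 h, 6 of the 14 genes (PADI2, F13A1, GSN, SEL1L3, PLD3 and LY86) had every MS41 library above every DMSO library, as 38.8% of the expressed genes did. The 6 h difference was above 0 for 13 of the 14, with a median of 0.11, while of the 6158 expressed genes within the same bound 56.5% were above 0. These values took part in the choice, from 299 genes with a median 6 h difference of 0.50 and 0 at -0.15 or less, so the count is a description. With TMM scaling in place of library totals the 6 h difference was above 0 for 11 of the 14. The median expressed gene was then at -0.02 in place of 0.05, and the share of expressed genes above 0 was not counted. The median 24 h difference was 1.14, against 1.35 for all 299 genes raised at 24 h. PLD3 and SEL1L3 were nearest to the 6 h bound from inside, both at 0.142, and CAPG (0.154) and AGTPBP1 (0.159) nearest from outside. PRLR (1.01) and SERPINF1 (1.02) were nearest to the 24 h threshold from inside, and TDRD7 (0.947) and FRY (0.931) from outside. TMEM176B (6.24 CPM) and PRLR (7.58 CPM) were nearest to the level threshold from inside. HLA-DPB1, another class II chain, lay outside it at 4.57 CPM although its 24 h difference was 1.91, and AOC1 lay outside it at 2.59 CPM. The 14 genes had a median exon length of 2276 bases and a median GC content of 52.1%, against 3854 bases and 47.2% for the expressed genes.

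**Figure D2:**
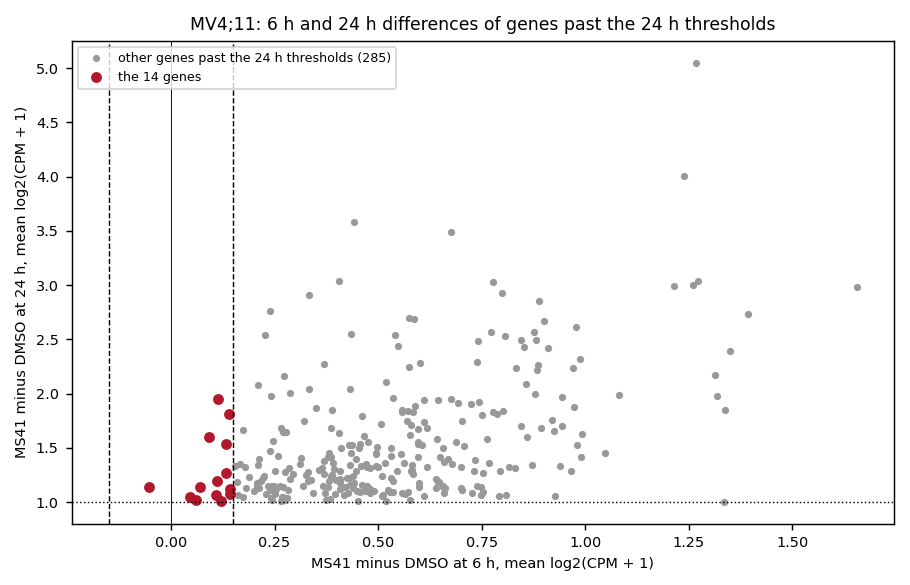
Difference in mean log2(CPM + 1) between MS41 and DMSO at 6 h (x axis) and 24 h (y axis) for the 299 protein-coding genes past the 24 h thresholds in MV4;11, each point 1 gene from 3 libraries per group. Red points are the 14 late genes between the dashed lines at -0.15 and 0.15; the other 285 lie to the right of them, and no point lies to the left.

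The lists of related genes, chosen with earlier results of these data known, held few of the 14. The class II list held HLA-DRB1 and CD74, and the lysosomal list held PSAP. The other lists, such as myeloid maturation, interferon response and p53 targets, held 0 of the 14. Of 11 MHC class II genes at 5 CPM or more with MS41 at 24 h, 8 were past the 24 h thresholds, 6 of them with a 6 h difference of 0.15 or more and 2 (HLA-DRB1 and CD74) among the late genes. Of 39 lysosomal genes, 4 were past the 24 h thresholds, 3 with a 6 h difference of 0.15 or more, and the fourth was PSAP. Of 31 genes of myeloid maturation, 16 were past the 24 h thresholds, all 16 with a 6 h difference of 0.15 or more. The median 24 h difference was 1.95 in the class II list, 0.42 in the lysosomal list and 1.12 in the maturation list, each a description from the libraries that chose the genes. Over the same libraries, the 7 monocytic markers summed to 2865 to 2954 CPM with MS41 at 24 h and to 1559 to 1588 CPM with DMSO, and mitochondrial transcripts made up 5.86% to 7.04% with MS41 and 5.20% to 5.41% with DMSO. The 6 T and NK markers summed to 13.6 to 14.4 CPM with MS41 and to 5.93 to 6.93 CPM with DMSO, with 1 of the 6 at 1 CPM or more in each group and CD2 at 0 in both. The 7 B-cell precursor markers summed to 5.07 to 6.20 CPM with MS41 and to 2.56 to 3.04 CPM with DMSO, with 2 of the 7 at 1 CPM or more with MS41, 1 of the 7 with DMSO and VPREB1 at 0 in both. The part of these markers and transcripts in the result was not tested.

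MS41N and PFI-6 left the 14 genes near the level of DMSO at 24 h. These libraries are set against the same DMSO libraries that chose the genes, so the values are a description. The ratio of means ran from 0.899 to 1.08 for MS41N over DMSO and from 0.898 to 1.11 for PFI-6 over DMSO. The MS41N and DMSO libraries overlapped for all 14 genes, while 19.4% of the expressed genes did not overlap. The PFI-6 and DMSO libraries did not overlap for 4 of the 14 (HLA-DRB1, F13A1, SEL1L3 and SERPINF1), all a little higher with PFI-6, beside 47.7% of the expressed genes. HLA-DRB1 was at 10.3, 10.3 and 10.4 CPM with PFI-6 and at 9.90, 9.60 and 9.48 CPM with MS41N at 24 h. CD74 was at 132, 126 and 134 CPM with PFI-6 and at 142, 125 and 126.6 CPM with MS41N.

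PFI-6 and MS41N, both at 100 nM, were compared directly, since neither group took part in the choice. At 24 h edgeR called 0 of the 14 genes different (0.106% of 22711 genes were called in either direction), and 2 had an unadjusted p under 0.05. DESeq2 called 1 of the 14, beside 174 of all genes (24 with edgeR). SEL1L3 was at 63.8, 59.6 and 59.9 CPM with PFI-6 and at 57.5, 56.4 and 54.9 CPM with MS41N; the libraries did not overlap, and the log2 fold change of 0.13 had a 95% interval of 0.05 to 0.20 (edgeR adjusted p = 0.14; DESeq2 adjusted p = 0.042). PLD3 was at 29.9, 26.5 and 29.6 CPM with PFI-6 and at 31.7, 32.6 and 29.8 CPM with MS41N, which overlap by a narrow margin (log2 fold change -0.12, interval -0.23 to -0.02, edgeR adjusted p = 0.34). For the other 12 genes the interval included 0. For CD74 it ran from -0.08 to 0.08 and for HLA-DRB1 from -0.04 to 0.24, so differences beyond those bounds lay outside the intervals, while smaller ones in either direction are not resolved here.

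At 6 h edgeR also called 0 of the 14 between PFI-6 and MS41N (0.0132% of all genes were called). DESeq2 called 0 of the 14 too, beside 23 of all genes. An unadjusted p under 0.05 was found for 2 of the 14 in edgeR. The 2 were LY86, at 30.0, 29.9 and 28.2 CPM with PFI-6 and 32.9, 31.7 and 30.8 CPM with MS41N (log2 fold change -0.12, edgeR adjusted p = 0.61), and PADI2, with a log2 fold change of -0.22 (edgeR adjusted p = 0.76). Whether the difference between PFI-6 and MS41N changed between 6 h and 24 h was tested as an interaction. It was called for 0 of the 14 genes by edgeR and by DESeq2 (0% of all genes with edgeR and 3 of all genes with DESeq2). In edgeR 1 gene, LY86, had an unadjusted p under 0.05, with a change of 0.17. These 3 comparisons of PFI-6 with MS41N covered 42 values of the 14 genes.

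Most of the 14 genes also changed with time in culture in libraries without MS41. With MS41N or PFI-6, whose 12 libraries took no part in the choice, 7 genes rose and 3 fell between 6 h and 24 h in edgeR, a test added after the data had been seen; 22.6% of all genes rose and 21.6% fell. PRLR rose by 1.88 on the log2 scale (SE 0.11, edgeR adjusted p = 5.9e-19). Its levels were 1.09, 0.521 and 0.997 CPM with MS41N at 6 h and 3.57, 3.38 and 3.61 CPM at 24 h. SEL1L3 rose by 0.83, F13A1 by 0.82, TMEM176B by 0.58, HLA-DRB1 by 0.57, PSAP by 0.42 and CD74 by 0.16. LY86 fell by 0.74, GSN by 0.56 and MCUB by 0.27. For PADI2, PLD3, NRG4 and SERPINF1 the edgeR adjusted p ran from 0.067 to 0.3, with changes between -0.10 and 0.09. Leaving out some single libraries brought PLD3 (without MS41N replicate 2 at 6 h, MS41N replicate 3 at 24 h or PFI-6 replicate 2 at 24 h) or SERPINF1 (without replicate 2 of MS41N or PFI-6 at 6 h or MS41N replicate 1 at 24 h) under the threshold, with changes of 0.10 to 0.11 for PLD3 and -0.08 to -0.07 for SERPINF1. PLD3 was also called in edgeR with a GC trend removed (0.16, adjusted p = 1.2e-05) and without a filter on low counts (0.08, adjusted p = 0.038), and SERPINF1 in DESeq2 (-0.07, adjusted p = 0.037). Without MS41 the 14 genes thus followed different courses over the same hours.

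The ratio of the 24 h mean to the 6 h mean ran from 1.14 (LY86) to 5.78 (PRLR) with MS41 and from 0.570 (LY86) to 2.88 (PRLR) with DMSO. The DMSO ratio was also under 1 for GSN (0.642), MCUB (0.723), PADI2 (0.865) and SERPINF1 (0.893). For LY86 the MS41 mean was 33.6 CPM at 6 h and 38.3 CPM at 24 h, while the DMSO mean was 31.1 CPM at 6 h and 17.7 CPM at 24 h. HLA-DRB1 followed the other course: its MS41 mean was 8.12 CPM at 6 h and 39.2 CPM at 24 h, and its DMSO mean was 7.44 CPM at 6 h and 9.39 CPM at 24 h.

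**Figure D3:**
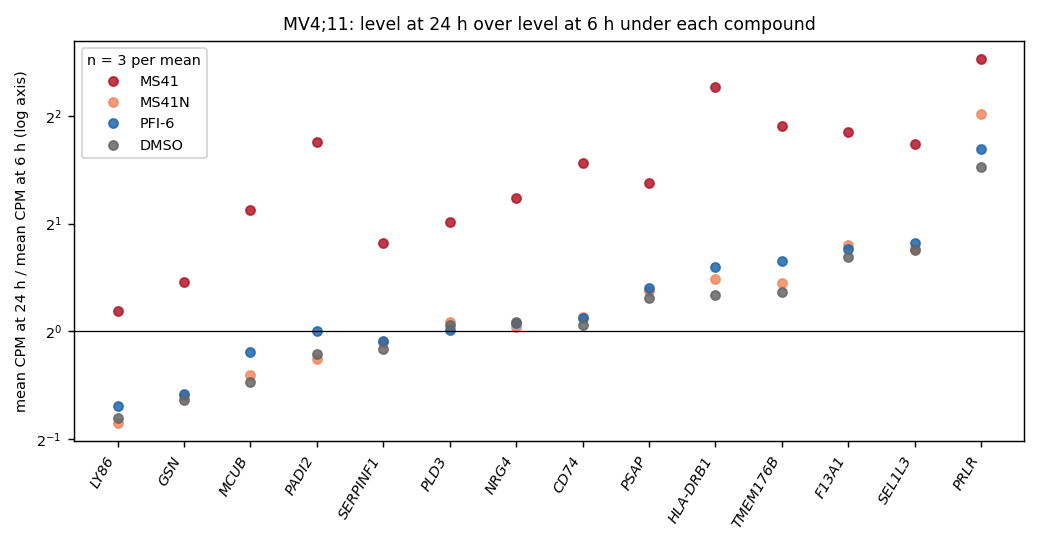
Mean CPM at 24 h over mean CPM at 6 h for each of the 14 genes (x axis) with MS41, MS41N, PFI-6 or DMSO in MV4;11, on a log axis, each point a ratio of means of 3 libraries. The MS41 points are the highest for every gene, from 1.14 to 5.78, while the DMSO points run from 0.570 to 2.88. The MS41N points run from 0.552 to 4.04 and the PFI-6 points from 0.618 to 3.23, both highest for PRLR.

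With the ENL guides, 8 of the 14 rose against the control guide in edgeR, 0 fell, and all 14 fold changes were positive. Over all 17984 genes tested 5.32% rose, and the median log2 fold change was 0.76 over the 14 and 0.00 over all genes. Every library of both guides lay above both control libraries for 12 of the 14, as it did for 19.7% of all genes. DESeq2 called 10 of the 14, while it called 1145 of all genes higher and 1104 lower. An unadjusted p under 0.05 was found for 12 genes in edgeR. The share of all genes under that bound was not counted, here or in the other comparisons. Of the other 285 genes raised at 24 h, 208 rose with the guides and 0 fell, with a median of 0.73; the difference from the 14 was not tested.

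Both class II genes rose. CD74 was at 435 and 497 CPM with guide 1 and at 390.0 and 451 CPM with guide 2, against 231 and 239 CPM with the control guide (log2 fold change 0.88, SE 0.09, edgeR adjusted p = 0.00012). HLA-DRB1 was at 17.2 and 19.2 CPM with guide 1 and at 13 and 16.7 CPM with guide 2, against 8.39 and 9.22 CPM with the control guide (0.87, edgeR adjusted p = 0.001). All 4 guide libraries lay above both controls for each gene, and guide 1 stood above guide 2 on average. Of 15 class II genes tested, 9 rose and 0 fell, with a median of 1.14.

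The lysosomal genes PSAP and PLD3 also rose. PSAP was at 153 and 170.1 CPM with guide 1 and at 135 and 144 CPM with guide 2, against 79.1 and 83.5 CPM with the control guide (log2 fold change 0.85, SE 0.07, edgeR adjusted p = 2.7e-05), the lowest adjusted p of the 14. PLD3 was at 111 and 92.9 CPM with guide 1 and at 95.6 and 78.7 CPM with guide 2, against 61.0 and 48.6 CPM with the control guide (0.76, edgeR adjusted p = 0.004). Of 41 lysosomal genes tested, 17 rose and 0 fell, with a median of 0.20.

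SERPINF1 (log2 fold change 0.77, edgeR adjusted p = 4.6e-05), GSN (0.64, edgeR adjusted p = 0.00059), LY86 (0.40, edgeR adjusted p = 0.01) and TMEM176B (1.27, edgeR adjusted p = 0.011) made up the rest of the 8. GSN was at 326 and 281 CPM with guide 1 and at 299 and 306 CPM with guide 2, against 215 and 167 CPM with the control guide. TMEM176B was at 4.48 and 5.41 CPM with guide 1 and at 3.86 and 5.17 CPM with guide 2, against 1.42 and 2.40 CPM with the control guide. None of the guide libraries of these genes overlapped the control libraries.

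PRLR and F13A1 had large fold changes that missed the threshold in the reported fit. PRLR was at 3.48 and 6.16 CPM with guide 1 and at 4.01 and 6.94 CPM with guide 2, against 0.723 and 1.55 CPM with the control guide (log2 fold change 2.14, 95% interval 0.74 to 3.54, edgeR adjusted p = 0.083). F13A1 was at 7.36 and 11.7 CPM with guide 1 and at 7.21 and 10.0 CPM with guide 2, against 3.39 and 4.87 CPM with the control guide (1.10, edgeR adjusted p = 0.082). DESeq2 called both (adjusted p = 0.0022 for PRLR and 0.021 for F13A1), and edgeR called F13A1 without either library of guide 1 (adjusted p = 0.01 without replicate 1 and 0.036 without replicate 2). Replicate 2 stood above replicate 1 within all 3 guides for 9 genes, PRLR and F13A1 among them, and below it for 3. With a term for replicate number edgeR called PRLR (adjusted p = 7.8e-09), F13A1 (adjusted p = 4.7e-07) and MCUB (adjusted p = 0.0021). Within replicate 1 and within replicate 2 taken alone, all 14 genes were higher with the guides. MCUB (0.73, edgeR adjusted p = 0.34), PADI2 (0.36, 0.18), NRG4 (0.17, 0.29) and SEL1L3 (0.16, 0.14) were also not called in the reported fit. The numbers in brackets are log2 fold change and edgeR adjusted p. Without a filter on low counts edgeR called MCUB (0.75, adjusted p = 0.008), SEL1L3 (0.18, adjusted p = 0.035) and F13A1 (1.12, adjusted p = 1.4e-09). PADI2, with the largest ratio after 24 h of MS41, was thus at 3.99 and 4.94 CPM with guide 1 and at 3.88 and 4.48 CPM with guide 2, against 3.05 and 3.52 CPM with the control guide. PRLR was the only one of the 14 with a larger mean ratio under the guides than after MS41 for 24 h.

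Other markers moved with the guides. The 7 monocytic markers summed to 1648 to 1957 CPM with the ENL guides and to 639 to 800.1 CPM with the control guide, and 24 of 40 myeloid maturation genes tested rose while 0 fell (median 0.46). Of 6 T and NK markers, 1 reached 1 CPM, and the sum was 46.7 to 56.9 CPM with the ENL guides and 35.3 to 35.8 CPM with the control guide, with CD3D and CD2 at 0. Mitochondrial transcripts made up 3.82% to 4.66% with the ENL guides and 3.19% to 3.58% with the control guide. Their part in the result was not tested.

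**Figure D4:**
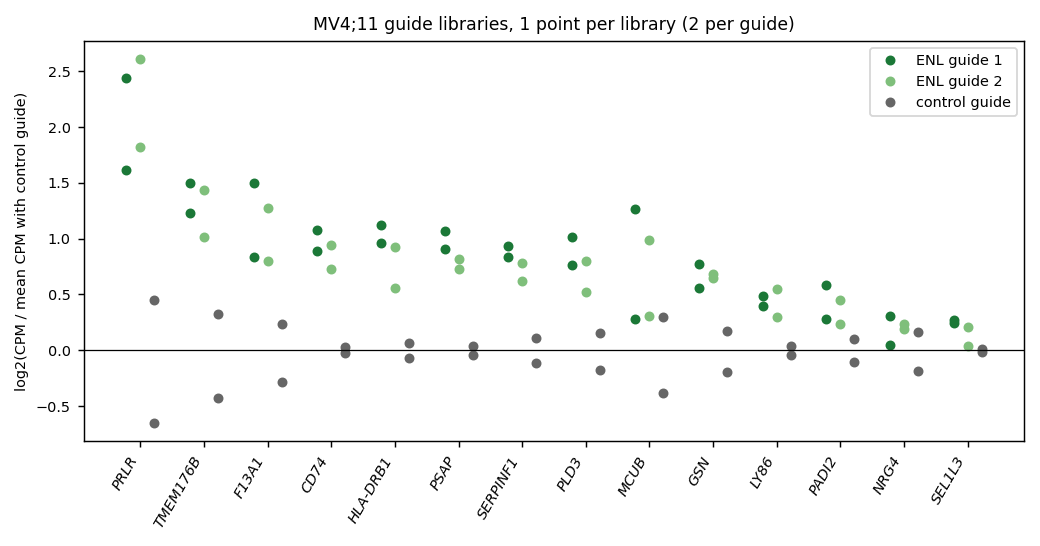
log2 ratio of each guide library's CPM to the mean CPM with the control guide (y axis) for the 14 genes (x axis) in MV4;11, with 2 libraries each for ENL guide 1, ENL guide 2 and the control guide. The ENL guide points lie above both control points for 12 genes and overlap them for MCUB and NRG4.

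SEMK2 DMSO replicate 3 stood apart from the other DMSO replicates, with a chi-square per gene of 50.7 and 56.4 against them, while the other pairs of SEMK2 libraries within a group were at 10.1 to 13.01. Without it edgeR called 2986 of all genes in place of 291. In SEMK2, 1 of the 14 genes rose with MS41 and 0 fell in edgeR, where 0.84% of 21433 genes rose. DESeq2 also called 1 of the 14, beside 763 of all genes. The riser was SEL1L3, at 54.1, 52.7 and 52.8 CPM with MS41, against 44.1, 42.9 and 42.5 CPM with DMSO (log2 fold change 0.29, SE 0.04, edgeR adjusted p = 0.0031). The SEMK2 groups did not overlap for SEL1L3 or for MCUB, PSAP and LY86, each higher with MS41, while 9.77% of all genes behaved so. MCUB (0.11), PSAP (0.09) and LY86 (0.15) had small log2 fold changes with unadjusted p under 0.05 and edgeR adjusted p from 0.24 to 0.36.

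CD74, HLA-DRB1, PSAP and MCUB were at higher CPM in all 6 libraries of this B-cell precursor line than in any MV4;11 compound library. This difference lies between separate sets of libraries and was not tested. MCUB was at 83.1 to 84.0 CPM with MS41 and 75.2 to 79.8 CPM with DMSO, and at most 14.8 CPM in the MV4;11 compound libraries. CD74 was at 1358, 1456 and 1407 CPM with MS41, against 1439.5, 1411 and 1154 CPM with DMSO, which overlap (log2 fold change 0.07, 95% interval -0.11 to 0.24). HLA-DRB1 was at 55.0, 53.1 and 49.95 CPM with MS41, against 55.9, 51.7 and 50.1 CPM with DMSO (0.00, interval -0.12 to 0.11). PSAP was at 1061, 1082 and 1046 CPM with MS41, against 1019, 1022 and 938 CPM with DMSO. Of 16 class II genes tested in SEMK2 1 rose and 0 fell, and of 41 lysosomal genes 0 rose and 0 fell. TMEM176B and PRLR had 0 counts in all 6 SEMK2 libraries, which allows up to 0.013 to 0.0192 CPM (3 counts per library; counting error only). PADI2 had 263 counts in DMSO replicate 1 and 0 in the other 5 libraries. These 3 genes did not pass the filter on low counts, so 11 of the 14 were tested. In the same DMSO replicate 1 the monocytic markers summed to 44.2 CPM, against 27.5 to 30.0 CPM in the other 5 libraries, and GSN was at 24.9 CPM, against 17.8 to 20.5 CPM. The epithelial markers summed to 2.12 CPM there, against 0 to 0.078 CPM in the other 5 libraries. The B-cell precursor sum of 1668 CPM lay within the range of the other 5. Without that library SEL1L3 still rose (0.31, edgeR adjusted p = 0.014), and GSN had a log2 fold change of 0.09 in place of -0.07, called in neither fit. Without DMSO replicate 3, PLD3 was also called, lower with MS41 (-0.22, edgeR adjusted p = 0.026).

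In vivo, DESeq2 called 0 of the 14 genes between MS41 and vehicle, beside 69 of all genes. With edgeR 0 of the 14 were called (0.0328% of 21337 genes were called), and 3 had an unadjusted p under 0.05. All 3 were lower with MS41. GSN was at 197, 206 and 209.9 CPM with MS41, against 248, 238 and 233 CPM with vehicle (log2 fold change -0.24, 95% interval -0.36 to -0.11, edgeR adjusted p = 0.38). TMEM176B was at 5.33, 7.52 and 7.35 CPM with MS41, against 11.0, 8.31 and 8.51 CPM with vehicle (-0.47, edgeR adjusted p = 0.59), and SERPINF1 at 37.1, 38.9 and 41.1 CPM with MS41, against 46.3, 44.3 and 41.8 CPM with vehicle (-0.19, edgeR adjusted p = 0.6). The groups did not overlap for these 3, CD74 and NRG4, all lower with MS41 (14.1% of all genes), nor for PADI2, which was higher (16% of all genes). Within each replicate number the deposited in vivo values nearly mirror each other around a shared mean, so groups tend to stay apart there once the differences of the 3 pairs share a sign.

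CD74 was at 159.6, 159 and 155 CPM with MS41 in vivo, against 167, 167 and 172 CPM with vehicle; its log2 fold change was -0.10 with an interval of -0.23 to 0.03, beside the 24 h difference of 1.60 in culture. HLA-DRB1 was at 2.67, 3.04 and 2.56 CPM with MS41, against 3.17, 2.77 and 3.29 CPM with vehicle, with an interval of -0.55 to 0.22. The median log2 fold change of the 14 was -0.10, against 0.00 over all genes tested. The monocytic markers summed to 6452 to 7868 CPM with MS41 and 6776 to 8201 CPM with vehicle. The deposited in vivo values carry an adjustment by replicate number that no label describes, so the fit has a term for that number, and the effect of the adjustment on these values was not tested. With that term left out, GSN was called lower (-0.24, edgeR adjusted p = 0.033).

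**Figure D5:**
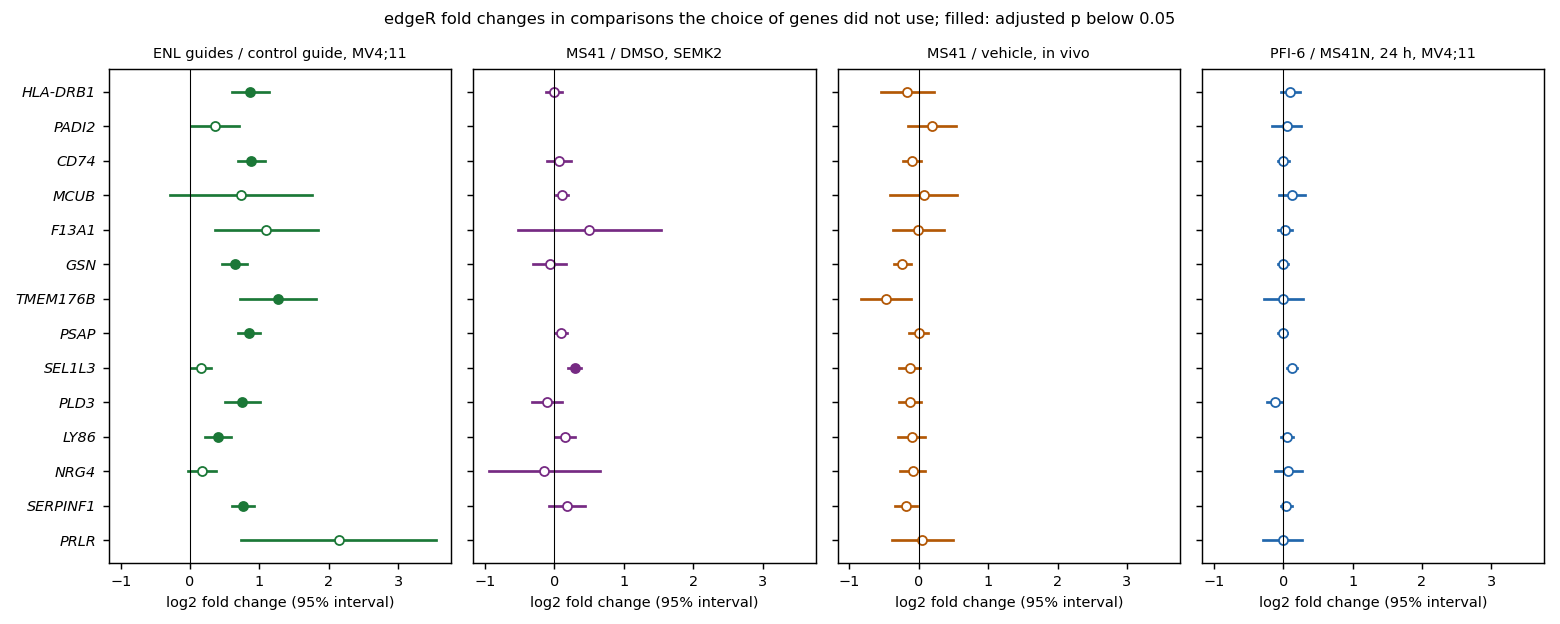
edgeR log2 fold changes (points) with 95% intervals (lines) of the 14 genes in 4 comparisons that the choice of genes did not use; filled points have an adjusted p below 0.05. With the ENL guides all 14 points lie above 0 and 8 are filled; in SEMK2 SEL1L3 alone is filled among the 11 genes tested, and in vivo and for PFI-6 over MS41N none is filled.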

How the data were processed

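RNA was sequenced from 42 libraries in 15 groups. Per the submitters' processing notes the tools were HISAT2 2.1.0, HTSeq 0.11.3 and CASAVA 1.8, on build hg38; settings are not given in the sources used here. The deposited compound, SEMK2 and guide values are raw counts per gene. The deposited in vivo values are whole numbers that are handled as estimated counts (expected counts), because MS41 and vehicle libraries of 1 replicate number mirror each other. Each gene's SD of the pair means of log2 CPM had a median over 13745 genes of 0.000989 as numbered. Under the 5 other matchings that median was 0.0338 to 0.0548. The in vivo values were rounded to whole numbers before the fit.

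Library totals, in units of 1000000 counts, were 102.3 to 156.5 in the compound libraries, 77.22 to 87.81 with the guides, 155.9 to 230.6 in SEMK2 and 99.49 to 126.7 in vivo. Libraries of a group differed beyond sampling noise (chi-square per gene of 4.13 to 56.4). CPM used the library total, and positions and gene types came from GENCODE release 29. The 14 genes and the gene lists were chosen with earlier results of these data known.

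Tests used the robust quasi-likelihood fit of edgeR 4.0.16 with TMM factors and filterByExpr (R 4.3.3), with 1 term per group, for 22711 genes in the 24 compound libraries, 17984 with the guides, 21433 in SEMK2 and 21337 in vivo, where replicate number was a term. The p-values were adjusted by the Benjamini-Hochberg method across every gene tested in a comparison, and rose, fell and called mean an adjusted p below 0.05; log2 fold changes are on the TMM scale and intervals cover 95%. The scripts were tested on simulated data. Alternatives were DESeq2 1.42.0, no filter, removal of a GC trend, a replicate block and leaving out each library, and for the choice of genes another pseudocount (0.5), scaling and 6 h bound. Genes named in the text were those with the largest 24 h difference, the highest level, a call, a place in a list or a place next to a threshold, and the rest of the 14 to account for each. HLA-DRA, MCU, CD180, TMEM176A and ERBB4 were looked up as partners after the 14 were known.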

Additional observations from a re-analysis of the deposited data

Results flagged for a closer look

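For 5 of the 14 genes every MS41 library lay above every DMSO library after 24 h in MV4;11 culture, while every MS41 library lay below every vehicle library in vivo. The in vivo log2 fold changes, MS41 over vehicle, were -0.47 for TMEM176B, -0.24 for GSN, -0.19 for SERPINF1, -0.10 for CD74 and -0.091 for NRG4, and edgeR called none of them (adjusted p from 0.38 to 0.83). The difference between culture and in vivo was not tested, because the culture values chose the genes and the 2 tables were processed separately with different library kits. Lower values without overlap were found in vivo for 14.1% of all genes. The deposited in vivo values nearly mirror each other within a replicate number, so this lack of overlap says little more than that the differences of the 3 pairs share a sign.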

How the results depend on the processing

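The size of the set depended on how it was chosen: 25 genes with TMM scaling in place of library totals (12 of the 14 among them, without SERPINF1 and PRLR), 5 with a 6 h bound of 0.10, 24 with a bound of 0.20, and 12 to 15 without each library in turn. TMM scaling shifted the median expressed gene by -0.06 at 6 h and -0.05 at 24 h. The number of the 14 called was 1 with DESeq2 for PFI-6 over MS41N at 24 h. In SEMK2 it was 2 with a GC trend removed (PSAP added, 0.13, edgeR adjusted p = 0.0018) and 1 to 2 without each library; without DMSO replicate 3, PLD3 was added (-0.22, edgeR adjusted p = 0.026) and 2986 of all genes were called in place of 291. In vivo it was 1, GSN, without a filter on low counts and without the replicate block, where 523 of all genes were called in place of 7. For the guides it was 8 to 9 without each library, 10 with DESeq2, 8 with a GC trend removed, 11 without a filter (MCUB, SEL1L3 and F13A1 added) and 11 with a replicate block, which added PRLR (2.17, edgeR adjusted p = 7.8e-09), F13A1 (1.10, 4.7e-07) and MCUB (0.72, 0.0021), with 3203 of all genes called in place of 1853. Same-numbered libraries of guide 1 and the control guide deviated together with a correlation of 0.67, and those of guide 2 and the control guide with 0.01. The reported guide fit had no term for replicate number, so spread shared by number stayed in its error. The block changed no count of the 14 in the other culture comparisons. Of 1118 values of single genes under alternatives, 1094 kept their call and direction of call, 24 gained a call and 0 lost one; 67 changed sign without a call in either fit. Over all alternatives the number of all genes called ran from 0 to 189 for PFI-6 over MS41N at 24 h (24 in the reported fit), from 100 to 2986 in SEMK2 (291), from 940 (without guide 2 replicate 2; 1015 without control guide replicate 2) to 3203 with the guides (1853) and from 0 to 523 in vivo (7). The guide comparison rests on 2 libraries per guide, and TMEM176B, MCUB, PADI2, PRLR and F13A1 averaged under 5 CPM with the control guide.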

Other observations

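The level from which the 14 genes started differed between the MV4;11 tables, which were made separately and, in vivo, with another library kit; the values are side by side and were not compared in a test. F13A1 averaged 29.3 CPM with DMSO at 24 h, 4.13 CPM with the control guide and 5.58 CPM with vehicle in vivo, the widest range of the 14 (7.11-fold). NRG4 averaged 4.2 CPM with DMSO at 24 h, 18.0 CPM with the control guide and 22 CPM with vehicle in vivo. PSAP averaged 84.5 CPM with DMSO at 24 h, 81.3 CPM with the control guide and 299.6 CPM with vehicle in vivo, above its 187 CPM with MS41 for 24 h in culture. GSN averaged 64.9 CPM with DMSO at 24 h, 191 CPM with the control guide and 239 CPM with vehicle, the last 2 above its 149.9 CPM with MS41 for 24 h in culture.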
